A study of Mus musculus with 5 samples.

Results

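The non-fibrillar collagens examined here are 8 genes of the collagen family found in a table of genes that differed between *Irf8*-OE and control bone marrow-derived dendritic cells (BMDCs). They were taken by name from the 1355 genes of that table, and the table itself was selected on the fold change and adjusted p-value of the same contrast, so the members were chosen by their measured difference between the groups. *Col6a1*, *Col6a2*, *Col6a3* and *Col6a5* encode chains of type VI collagen, *Col8a1* a chain of the network-forming type VIII, *Col12a1* and *Col16a1* the fibril-associated types XII and XVI, and *Col15a1* the multiplexin type XV. All 8 were found in the table, beside 8 fibrillar collagens, and these are the 16 collagen genes it holds.

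The study asked how a raised level of IRF8, a transcription factor needed for conventional type 1 dendritic cells, changes the genes expressed by BMDCs. RNA-seq covered 3 *Irf8*-OE samples and 2 control samples of mouse bone marrow cells. The *Irf8*-OE mice carry an *Irf8* transgene (H11-CAG-LSL-*Irf8*-Flag-polyA), whose stop cassette is removed by Cre under the *Itgax* promoter, which is active in CD11c-positive cells. The control genotype is wild type in the sample labels and *Irf8* CAG-LSL without Cre in the study's text. Mice of both groups were 8 weeks old and described as male. Their marrow was cultured with 5 ng/ml GM-CSF and 200 ng/ml Flt3L to give CD103-positive dendritic cells, and the non-adherent cells were replated on day 9 and collected on days 15 to 16. TNF-α stimulation is part of the treatment label of every sample, whereas the protocol says only that cells could receive it, at 20 ng/ml. The sources used here do not say whether the samples of a group came from separate mice, so the spread between them may be technical.

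Collagens are proteins of the extracellular matrix in which 3 chains wind into a triple helix. Type VI collagen is secreted as tetramers that join into beaded microfibrils around cells. Type VIII forms short-chain networks in vessel walls and beneath some epithelia. Types XII and XVI attach to the surface of other collagen assemblies, and type XV lies at the edge of basement membranes and carries a C-terminal domain related to endostatin. Fibroblasts and other stromal cells are the usual producers of most of these chains, whereas dendritic cells are not known mainly for making matrix.

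The values are normalized counts, in which the reads of a gene were divided by 1 size factor per sample. The 1355 genes held between 646123 and 1062127 reads per sample, a total that falls short of library depth because the table holds only genes that the authors had called different. For *Irf8* itself the 3 *Irf8*-OE samples held 7141, 6519 and 6021 normalized counts, and the 2 controls held 2835 and 2747. The libraries also differed in a way that goes against their labels. *Xist*, the RNA of the inactive X chromosome, ranged from 10772 to 13476 normalized counts in *Irf8*-OE libraries and did not exceed 1.12 in control libraries. Conversely, 4 genes of the Y chromosome (*Uty*, *Kdm5d*, *Eif2s3y* and *Ddx3y*) ranged from 484 to 1385 normalized counts in control libraries and were at 0 in every *Irf8*-OE library. This split has the same samples on each side as the genotype, so the 2 cannot be told apart in any value below, and no value could be computed without the libraries concerned. None of the 8 collagen genes lies on X or Y. Markers of other cells moved as well, and the sum of 8 listed mast cell and basophil markers was 230375 to 234858 normalized counts in control samples and 34174 to 38156 in *Irf8*-OE. In such bulk samples, fewer cells of a type and less RNA per cell cannot be told apart.

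What joins these genes at the sequence level is the collagen repeat, in which a codon of the form GGN, the code for glycine, recurs with a period of 3 codons. Stretches of it are given for the 3 main type VI chains, for *Col8a1* and *Col16a1*, which hold the densest repeats, and for *Col15a1*, the gene that differed in the opposite direction. Each is a stretch of a coding exon within the repeat, read from the GENCODE transcripts on GRCm38, with the GGN codon that opens each triplet in capitals.
*Col6a1*, exon 9, chr10:76719623-76719676, minus strand: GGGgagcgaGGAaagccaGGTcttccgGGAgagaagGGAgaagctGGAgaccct
*Col6a2*, exon 6, chr10:76611948-76612001, minus strand: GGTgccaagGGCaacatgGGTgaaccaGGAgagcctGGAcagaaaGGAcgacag
*Col6a3*, exon 23, chr1:90791924-90791977, minus strand: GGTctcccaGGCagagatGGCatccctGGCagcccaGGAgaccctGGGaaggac
*Col8a1*, exon 4, chr16:57628030-57628083, minus strand: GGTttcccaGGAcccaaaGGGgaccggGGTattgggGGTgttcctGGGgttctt
*Col16a1*, exon 47, chr4:130079646-130079699, plus strand: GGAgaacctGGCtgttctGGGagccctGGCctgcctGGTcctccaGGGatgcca
*Col15a1*, exon 13, chr4:47270324-47270377, plus strand: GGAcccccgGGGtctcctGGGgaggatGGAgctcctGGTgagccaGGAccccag

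The share of codons lying in runs of at least 5 such triplets separated the genes. It was 62.1% of 1580 codons in *Col16a1* and 58.9% of 744 in *Col8a1*, so these chains are mostly repeat. In *Col6a1* and *Col6a2* it was 31.9% in each, of 1025 and 1034 codons, and both had a longest run of 87 triplets. *Col15a1* had 25.0% of 1367 codons in 11 separate runs. The long chains *Col6a3* (3284 codons), *Col6a5* (2640) and *Col12a1* (3065) had 10.0%, 11.7% and 8.12%. The type VI chains nonetheless held similar amounts in absolute terms, from 309 codons in *Col6a5* to 330 in *Col6a2* and *Col6a3*. The number of such runs was largest in *Col16a1*, with 21, and smallest in *Col6a1*, *Col6a2* and *Col6a3*, with 3 each. It does not measure how often the repeat is interrupted, because *Col16a1* also held more repeat. Its 21 runs covered 981 codons, and the 11 runs of *Col15a1* covered 342.

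Of the 8 genes, 7 had more normalized counts in every *Irf8*-OE sample than in either control, and *Col15a1* had fewer. In limma on log2(normalized count + 1) all 8 were called (adjusted p-value under 0.05, log2 fold change beyond 1 in either direction), as were 99.1% of the 1355 genes of the table (58.1% higher and 41.0% lower). For each of the 8 genes the samples of the groups were fully separated, as they were for 100.0% of the table. These genes are in the table because the authors had called them in the same 5 samples, so these counts describe the list, and the fold changes below are given with their standard errors (SE) and without a test. The median log2 fold change of the 8 genes was 1.71, beside 1.14 over the table, which holds many lower genes. Without regard to direction the median was 1.71 for the 8 genes and 1.73 for the table.

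**Figure D1:**
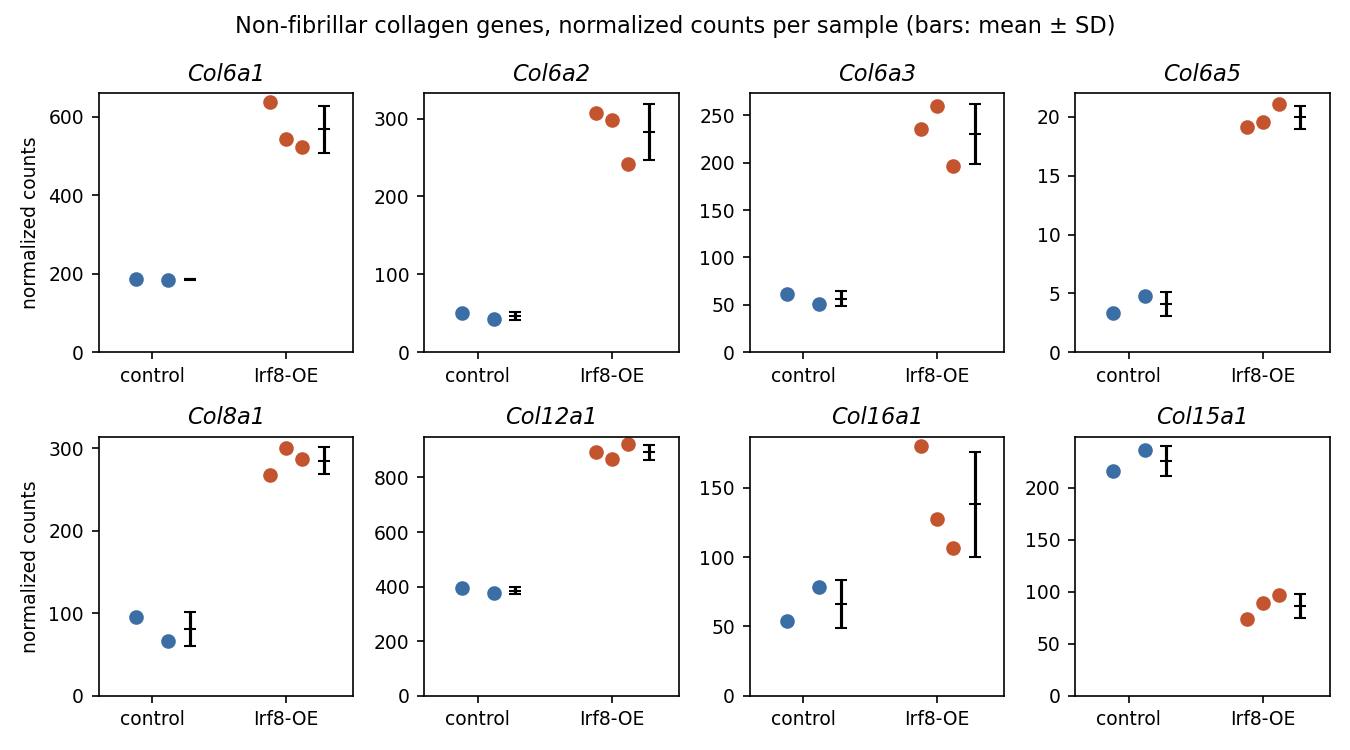
Normalized counts (y axes, each from 0) of the 8 non-fibrillar collagen genes in the 2 control samples (blue) and 3 Irf8-OE samples (orange), with the mean and SD beside them. The 3 Irf8-OE samples lie above both controls for 7 genes and below them for Col15a1, where they sit between 73.8 and 96.4 against 216 and 236.

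Type VI collagen was the largest group. *Col6a1* (chromosome 10 of GRCm38, 76708792 to 76726168, minus strand), which encodes one of the chains required in every type VI molecule, had 187 and 184 normalized counts in the controls and 636, 543 and 523 in *Irf8*-OE. The control values were nearly equal, and the lowest *Irf8*-OE value was far above them. The means were 185 ± 1.64 (SD, n = 2) and 568 ± 60.4 (SD, n = 3), a 3.06-fold difference and a log2 fold change of 1.60 (SE 0.11).

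*Col6a2* (chromosome 10, 76595762 to 76623630, minus strand), the second of the required chains, had 50.6 and 43.2 normalized counts in the controls and 308, 299 and 242 in *Irf8*-OE. Its means of 46.9 ± 5.23 (SD, n = 2) and 283 ± 35.6 (SD, n = 3) differed 6.03-fold, a log2 fold change of 2.56 (SE 0.16), which was the largest of the 8 genes. *Col6a1* and *Col6a2* lie side by side on the same strand, 85.2 kb apart, and no other listed gene was within 500 kb of either.

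*Col6a3* (chromosome 1, 90765923 to 90843971, minus strand), the longest chain of the common type VI molecule, had 61.8 and 50.9 normalized counts in the controls and 236, 260 and 197 in *Irf8*-OE. The means were 56.3 ± 7.74 (SD, n = 2) and 231 ± 31.7 (SD, n = 3), with a log2 fold change of 2.01 (SE 0.17). The alternative chain *Col6a5* (chromosome 9, 105856078 to 105960643, minus strand), which can take the place of the third chain in some tissues, was near the limit of detection. It had 3.37 and 4.80 normalized counts in the controls, from 3 and 5 reads, and 19.2, 19.6 and 21.1 in *Irf8*-OE, from 62 reads in all. The ratio of its rates was 4.81, with a 95% interval of 2.30 to 11.6 that covers counting error only (exact, Clopper-Pearson). Its log2 fold change of 2.06 (SE 0.29) had the largest SE of the type VI chains. It was 0.71 after quantile normalization, where the call was lost, and 1.09 with a pseudocount of 10.

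*Col8a1* (chromosome 16, 57624258 to 57754737, minus strand) had 95.5 and 66.2 normalized counts in the controls and 267, 301 and 286 in *Irf8*-OE. The controls were spread by 25.6% of their mean and the *Irf8*-OE samples by 5.85% (SD as a percentage of the mean). The means were 80.9 ± 20.7 (SD, n = 2) and 285 ± 16.7 (SD, n = 3), with a log2 fold change of 1.83 (SE 0.17).

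The fibril-associated collagens had the smallest differences among the 7 higher genes. *Col12a1* (chromosome 9, 79598991 to 79718831, minus strand) was the most abundant of all 8 in normalized counts, with 396 and 375 in the controls and 892, 866 and 921 in *Irf8*-OE. It was also the most even of the 8 in *Irf8*-OE, with an SD of 3.74% of the control mean and 3.06% of the *Irf8*-OE mean. The log2 fold change was 1.21 (SE 0.07). *Col16a1* (chromosome 4, 130047840 to 130099283, plus strand) was the most uneven in *Irf8*-OE. It had 53.9 and 78.7 normalized counts in the controls and 180, 128 and 106 in *Irf8*-OE, so that the groups were separated but the *Irf8*-OE samples spread more widely than the gap between the groups. Its means were 66.3 ± 17.5 (SD, n = 2) and 138 ± 37.9 (SD, n = 3), with a log2 fold change of 1.04 (SE 0.27). This gene lies nearest to the threshold of 1 that put genes into the table, and genes on the other side of it are not analysed here. The call was lost after quantile normalization (0.76) and with a pseudocount of 10 (0.95). The value was 0.83 when the first *Irf8*-OE sample was left out and 0.77 when the first control sample was.

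*Col15a1* (chromosome 4, 47208161 to 47313167, plus strand) was the only one of the 16 listed collagens with less RNA in *Irf8*-OE. It had 216 and 236 normalized counts in the controls and 73.8, 88.7 and 96.4 in *Irf8*-OE, with no overlap. The means were 226 ± 14.3 (SD, n = 2) and 86.3 ± 11.5 (SD, n = 3), 2.62-fold more in controls, which is a log2 fold change of -1.39 (SE 0.16). In GENCODE an antisense gene, *Gm12426*, shares 14 exonic bases with *Col15a1*, and the exons of the other 7 genes overlap those of no other gene. The nearest listed gene to *Col15a1* was *Tgfbr1*, a receptor for TGF-β, 40.1 kb away and also lower, with 5073 ± 15.0 (SD, n = 2) normalized counts in control samples and 2456 ± 297 (SD, n = 3) in *Irf8*-OE. *Nkain1*, the nearest listed gene to *Col16a1* at 432 kb, had a log2 fold change of -1.02, opposite to that of *Col16a1*. *Mlph*, 71.1 kb from *Col6a3*, had -1.11, again opposite. Apart from the pair *Col6a1* and *Col6a2*, the nearest listed neighbours therefore went both ways.

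**Figure D2:**
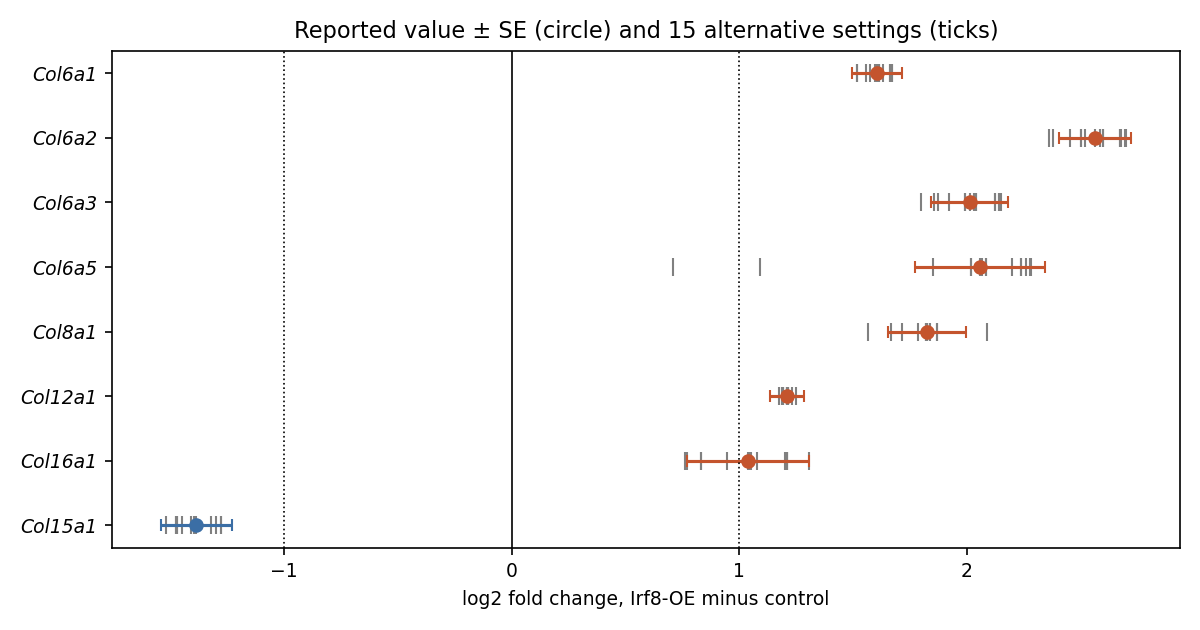
Log2 fold change (x axis, Irf8-OE minus control, dotted lines at -1 and 1) of each gene as reported (circle, with its SE) and under 15 alternative settings (grey ticks). All ticks keep the side of 0, and those of Col16a1 and Col6a5 reach down to 0.76 and 0.71.

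The spread between replicates was compared with what counting alone would give, as the chi-square of the recovered reads per degree of freedom. Counting alone gives 1 on average, but its median is lower than 1, the more so with fewer degrees of freedom. The medians over listed genes below are therefore to be set neither against 1 nor against each other. The controls had 1 degree of freedom and *Irf8*-OE had 2, so the value of a single gene is rough. In the *Irf8*-OE samples it was 10.7 for *Col16a1*, 6.63 for *Col6a1*, 4.53 for *Col6a2* and 4.44 for *Col6a3*. For *Col15a1*, *Col8a1* and *Col12a1* it was 1.57, 1.03 and 0.86. The median over 963 listed genes with at least 100 reads in the group was 2.07. In the controls the value was 5.17 for *Col8a1* and 4.37 for *Col16a1*, and from 0.01 to 1.03 for the other 6 genes, beside a median of 1.14 over 733 listed genes. *Col8a1* was thus above the median of listed genes in the controls and below it in *Irf8*-OE, and *Col16a1* was above it in both groups. With so few samples, and with these genes picked for their high values, counting error alone is not excluded in the controls. The order of the *Irf8*-OE samples was not the same for all genes. Of the 7 higher genes, 4 were lowest in the third *Irf8*-OE sample (*Col6a1*, *Col6a2*, *Col6a3* and *Col16a1*), as were 5 of the 8 fibrillar collagens, beside 35.7% of the 787 genes called higher. *Col12a1* and *Col6a5* were instead highest there, but their spread in *Irf8*-OE was within counting, at 0.86 and 0.05. For *Col6a5* the reads were 20, 21 and 21.

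Levels can be compared between genes only per length, and for this the normalized counts were divided by the length of the gene's joined exons in kb. That length, as deposited, equals the joined exons of GENCODE for all 8 genes. In the controls *Col6a1* was first, with 42.3 ± 0.37 normalized counts per kb (SD, n = 2), followed by *Col15a1* with 35.6 ± 2.26 and *Col12a1* with 25.3 ± 0.95. *Col8a1* and *Col16a1* came next with 10.3 ± 2.65 and 9.82 ± 2.59, and their sample ranges overlapped. *Col6a2*, *Col6a3* and *Col6a5* were last with 5.63, 4.71 and 0.43.

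In *Irf8*-OE the order per kb was different. *Col6a1* was again first with 130 ± 13.8 normalized counts per kb (SD, n = 3), and *Col12a1* second with 58.7 ± 1.79. *Col8a1* had 36.4 ± 2.13 and *Col6a2* 34.0 ± 4.28, with overlapping ranges, and *Col16a1* had 20.5 ± 5.62 and *Col6a3* 19.3 ± 2.65, also overlapping. *Col15a1*, second in the controls, was seventh with 13.6 ± 1.81, above *Col6a5* alone, which had 2.12. With the longest coding transcript as the length, the order in the controls stayed as it was, and in *Irf8*-OE *Col6a2* and *Col8a1* changed places. *Col6a2* moved most, to 11.9 per kb in control samples and 71.6 with *Irf8*-OE, and *Col8a1* moved to 15.8 and 55.7.

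**Figure D3:**
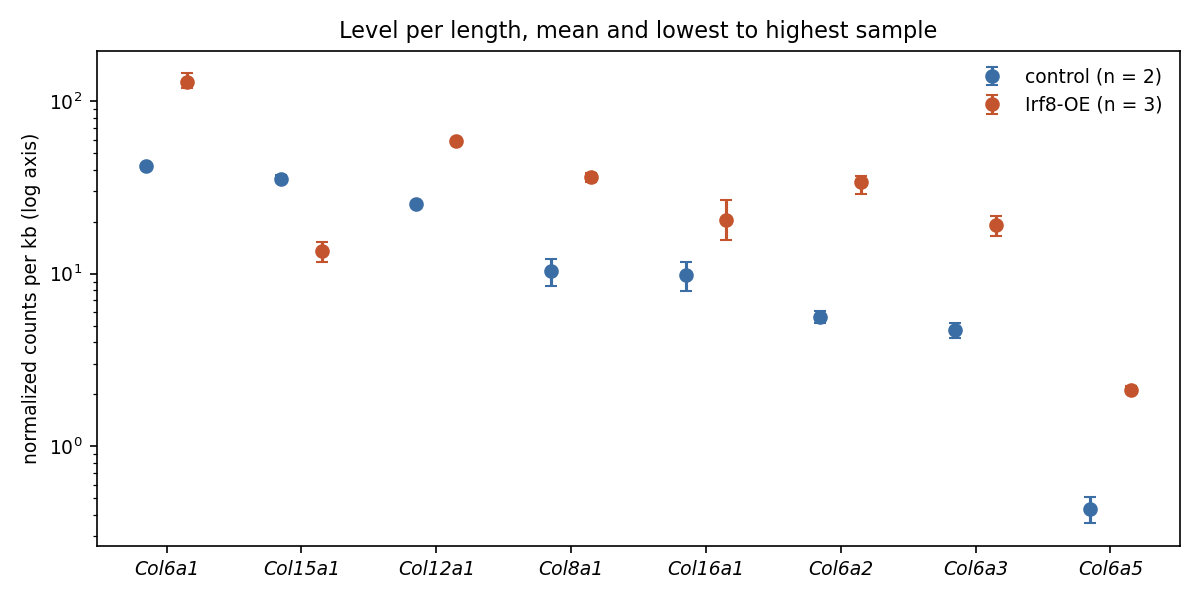
Level of each gene in normalized counts per kb of joined exons (y axis, log scale), with the mean and the lowest to highest sample, in controls (blue, n = 2) and Irf8-OE (orange, n = 3). Genes stand in the order of the controls, where Col15a1 is second at 35.6, while in Irf8-OE it is seventh at 13.6.

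The make-up of the set shifted accordingly. As a share of the summed level per kb of the 8 genes, *Col15a1* took 26.5% ± 1.74 (SD, n = 2) in the controls and 4.36% ± 0.84 (SD, n = 3) in *Irf8*-OE. *Col6a1* took 31.6% ± 0.21 and 41.2% ± 1.91, *Col6a2* 4.197% ± 0.46 and 10.8% ± 0.85, and *Col8a1* 7.69% ± 1.96 and 11.6% ± 1.24. The share of *Col12a1* was close in both groups, at 18.9% ± 0.67 and 18.7% ± 1.56. Of all reads on listed genes, the 8 genes together held 0.102% and 0.105% in control samples and 0.369% to 0.409% in *Irf8*-OE samples, a small part of the table in both. The listed total itself was lower in *Irf8*-OE, at 638352 to 648930 normalized counts against 1013265 and 1019228 in the controls. The 8 genes summed to 1039 to 1063 normalized counts in control samples and 2393 to 2613 in *Irf8*-OE, a smaller difference than that of the shares.

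Type VI chains assemble in fixed proportions, so the ratios between their RNAs were computed in each sample. Per kb, *Col6a1* exceeded *Col6a2* by 7.01-fold and 8.11-fold in the controls and by 3.93-fold, 3.46-fold and 4.11-fold in *Irf8*-OE. These chains were thus less unequal in every *Irf8*-OE sample than in either control. The opposite held for *Col6a3* and *Col6a2*, whose ratio was 0.85 and 0.82 in the controls and 0.53, 0.60 and 0.57 in *Irf8*-OE, farther from 1 and again with no overlap. That of *Col6a3* to *Col6a1* was 0.12 and 0.10 against 0.14, 0.17 and 0.14. *Col6a5* stood at 0.06 and 0.10 of *Col6a2* in the controls and at 0.06 to 0.08 in *Irf8*-OE, where the groups overlapped. The ratios depend on the length used, and with the longest coding transcripts *Col6a1* exceeded *Col6a2* by 3.83 ± 0.39 (SD, n = 2) in the controls and 1.94 ± 0.17 (SD, n = 3) in *Irf8*-OE.

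**Figure D4:**
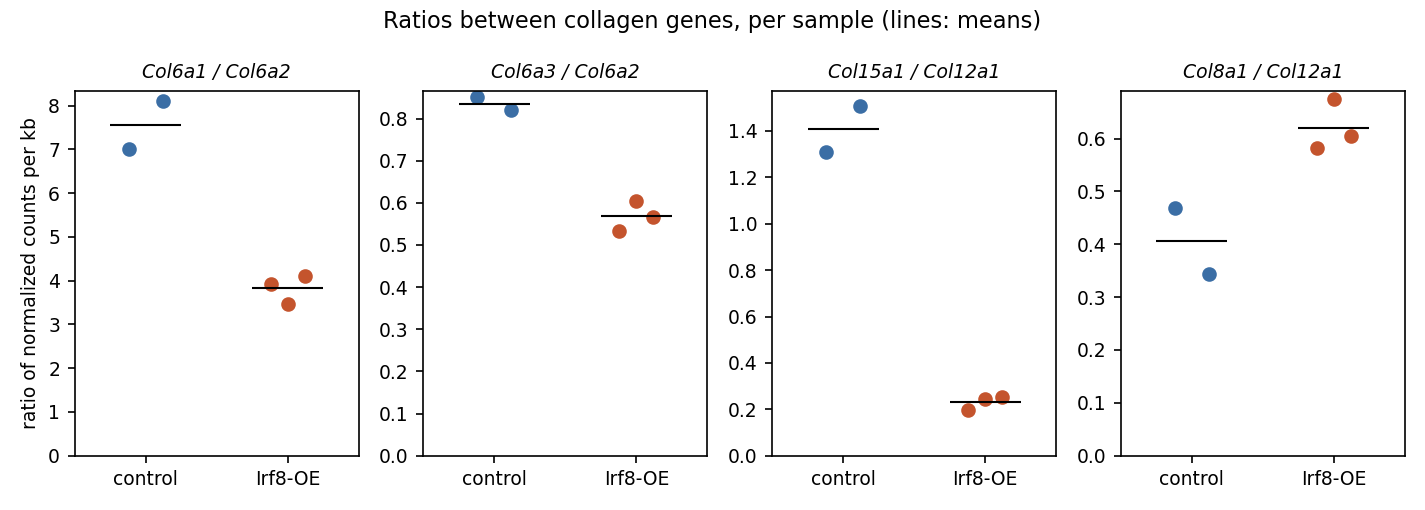
Ratio of normalized counts per kb (y axes, each from 0) between pairs of collagen genes in each control (blue, n = 2) and Irf8-OE sample (orange, n = 3), with lines at the means. Col6a1 to Col6a2 has a mean of 7.56 in controls and 3.83 in Irf8-OE, Col6a3 to Col6a2 of 0.84 and 0.57, Col15a1 to Col12a1 of 1.41 and 0.23, and Col8a1 to Col12a1 of 0.41 and 0.62.

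The promoters of the genes were searched for short motifs. RefSeq on GRCm38.p6 gave a window of 250 bases before to 50 after the start site for 7 genes, and none for *Col12a1*. A GC box (GGGCGG on either strand) was found in 4 of the 7 windows, those of *Col6a2*, *Col6a5*, *Col8a1* and *Col16a1*, beside 35.7% of all 32851 windows. An AP-1 site (TGANTCA) was found for *Col6a1* alone, beside 7.81% of all windows, a SMAD box (CAGACA) for *Col8a1* alone, beside 21.04%, and a CCAAT box (CCAAT) for *Col16a1* alone, beside 37.4%. Motifs to which IRF8 and its partners bind were searched as the core of the interferon-stimulated response element and as the ETS-IRF composite element, on both strands. Neither occurred in any of the 7 windows, nor did a TATA box (TATAAA), beside 3.44%, 2.72% and 13.6% of all windows. A match is a description of the letters, not of binding. Of each window, the 150 bases next to the start site on its upstream side are given for *Col6a2* and *Col6a3*, whose RNA differed most among the well-detected genes, for *Col8a1*, with 3 of its 4 GC boxes and its SMAD box in capitals, and for *Col15a1*. The GC box of *Col6a2* and the other GC box of *Col8a1* lie in the rest of their windows, which is not printed.
*Col6a2*, chr10:76623631-76623780, minus strand: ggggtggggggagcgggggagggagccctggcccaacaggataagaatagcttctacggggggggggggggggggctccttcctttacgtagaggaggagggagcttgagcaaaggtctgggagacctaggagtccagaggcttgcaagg
*Col6a3*, chr1:90843972-90844121, minus strand: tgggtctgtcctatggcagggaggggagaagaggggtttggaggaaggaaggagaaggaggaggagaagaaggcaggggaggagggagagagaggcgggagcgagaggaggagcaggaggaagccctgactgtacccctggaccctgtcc
*Col8a1*, chr16:57754738-57754887, minus strand: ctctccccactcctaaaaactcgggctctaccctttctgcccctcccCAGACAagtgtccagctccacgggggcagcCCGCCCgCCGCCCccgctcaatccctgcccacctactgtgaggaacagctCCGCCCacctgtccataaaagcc
*Col15a1*, chr4:47207862-47208011, plus strand: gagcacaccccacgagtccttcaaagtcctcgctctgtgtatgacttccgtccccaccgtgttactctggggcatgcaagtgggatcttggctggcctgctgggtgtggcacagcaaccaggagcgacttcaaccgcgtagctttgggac

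Fibrillar collagens were the nearest relatives in the table. All 8 of them were higher in *Irf8*-OE, with a median log2 fold change of 1.82 and a range from 1.15 to 3.13. *Col1a1*, a chain of the main fibril collagen, had 350 and 286 normalized counts in the controls and 3118, 2684 and 2579 in *Irf8*-OE. The 7 higher non-fibrillar genes, at 1.04 to 2.56, lay within the fibrillar range or just under it. *Col12a1*, which sits on type I fibrils, had a smaller log2 fold change than either type I chain, 1.21 against 3.13 for *Col1a1* and 1.94 for *Col1a2*. Another 25 non-fibrillar collagen genes were looked up, among them those of basement membrane type IV, and 0 were listed.

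Of 30 enzymes and chaperones that build collagen, 7 were listed, all higher, with a median log2 fold change of 1.38. *Lox*, which cross-links collagen, had 1528 ± 175 (SD, n = 2) normalized counts in control samples and 3228 ± 574 (SD, n = 3) in *Irf8*-OE. *Serpinh1*, the collagen chaperone HSP47, had 546 ± 76.0 and 1322 ± 95.2, and *Pcolce*, which aids the trimming of procollagen, 191 ± 33.6 and 495 ± 35.0. Among 14 collagen receptors 5 were listed, 4 higher and 1 lower. *Itga11*, a receptor chain for fibrillar collagen, had a log2 fold change of 2.42 (SE 0.22), *Mrc2*, which takes up collagen, 1.14 (SE 0.11), and *Ddr1*, a collagen-activated kinase, 1.07 (SE 0.15). *Gp6*, the platelet collagen receptor, had few reads and 3.27 (SE 0.64). *Itga2* was the lower one, with -1.70 (SE 0.31).

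Of 26 other matrix proteins that accompany collagen fibrils and microfibrils, 7 were listed and all were higher, with a median of 2.07. *Sparc*, a collagen-binding glycoprotein, had 1012 ± 49.7 (SD, n = 2) normalized counts in control samples and 3029 ± 8.14 (SD, n = 3) in *Irf8*-OE. *Postn* had the largest difference of this list, with 60.3 ± 13.3 and 541 ± 31.3. *Fbn1*, the main protein of elastic microfibrils, had 156 ± 10.8 and 553 ± 27.98. In the list of 15 basement membrane genes, 4 were listed. *Lama4*, *Lamb2* and *Agrn* were higher, with log2 fold changes of 1.54, 1.35 and 1.17, and *Lama5*, a laminin chain, was lower with -1.81, at means of 1978 ± 66.8 (SD, n = 2) for controls and 564 ± 31.5 (SD, n = 3) for *Irf8*-OE. *Col15a1* was thus one of a pair of lower genes among the collagens and basement membrane genes listed.

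Among 12 collagen-degrading proteases and their inhibitors, 5 were listed. *Mmp2*, *Mmp14*, *Timp1* and *Timp3* were higher, with log2 fold changes of 1.59, 1.08, 1.14 and 1.27, and the gelatinase *Mmp9* was lower with -1.97. Of 20 genes of the TGF-β pathway 7 were listed, 6 higher and 1, *Tgfbr1*, lower. *Tgfbi*, *Cyr61* and *Ctgf*, which respond to TGF-β in many cells, had log2 fold changes of 1.42, 1.60 and 1.94. These lists were read from genes that had already been called, so their direction is a description and no list was tested against others.

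**Figure D5:**
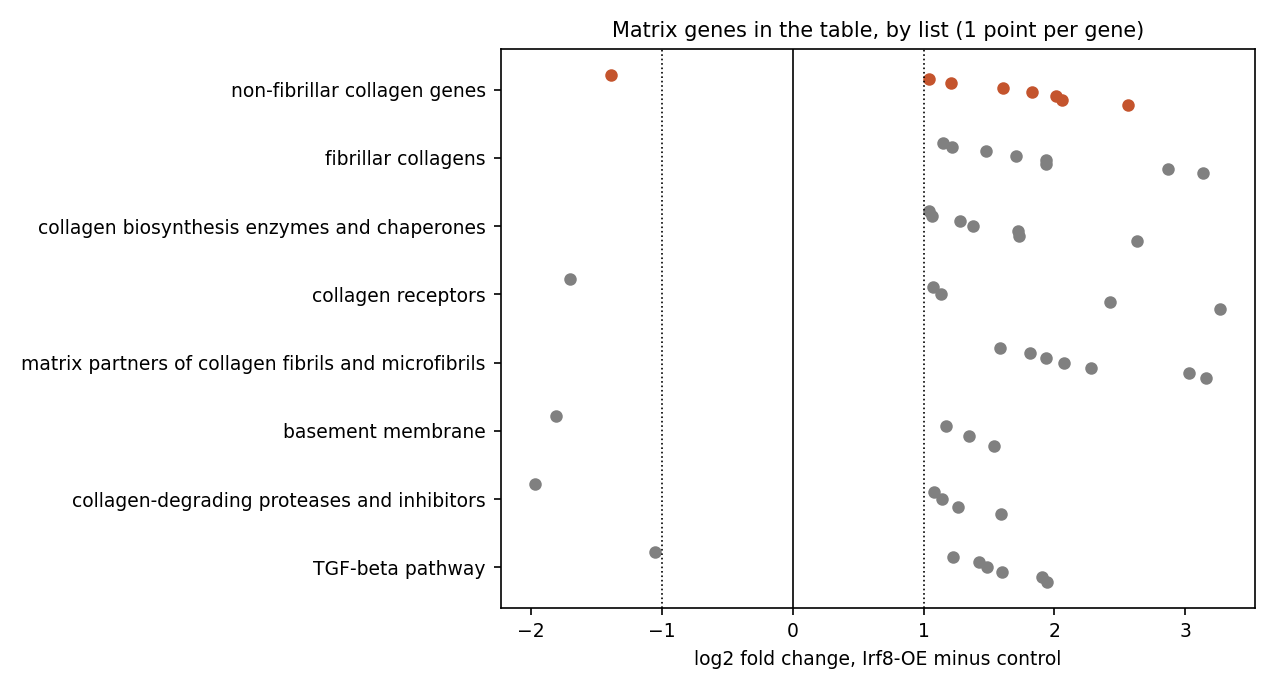
Log2 fold change (x axis, Irf8-OE minus control, dotted lines at -1 and 1) of each listed gene, 1 point per gene, for the 8 non-fibrillar collagen genes (orange) and 7 lists of related genes (grey). Fibrillar collagens, biosynthesis genes and matrix partners lie wholly to the right, between 1.04 and 3.16, and the other lists hold 1 gene each to the left.

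Markers of the cells a marrow culture could hold were read beside these values. Of 30 stromal markers 12 were listed, 11 higher and 1 lower, and their summed level was 1624 to 1678 normalized counts in control samples and 2978 to 3029 in *Irf8*-OE. *Cxcl12*, a chemokine of marrow stroma, had 77.5 and 106 normalized counts in the controls and 469, 461 and 442 in *Irf8*-OE, and *Acta2*, a contractile protein, 483 and 481 against 1236, 1245 and 1248. The exception, *Lepr*, a marker of marrow stroma, was at 646 and 698 in control samples and at 197 to 226 in *Irf8*-OE samples. None of the listed stromal markers was at 0 in a group. Of 14 macrophage markers 8 were listed and all 8 were higher, with summed levels of 4710 to 4901 in control samples and 23337 to 28075 in *Irf8*-OE. Of 11 mast cell and basophil markers 8 were listed, 7 lower and 1 higher, and of 8 B cell and plasma cell markers 5 were listed, all higher, at 209 to 247 and 2267 to 2608. Of 7 endothelial markers *Pecam1* alone was listed, and it was lower. Of 12 dendritic cell markers 3 were listed: *Irf8* and *Itgae* were higher, *Cd24a* was lower, and the other 9, *Itgax* among them, are not analysed here. The part of these cells in the collagen values was not tested.

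The genes most like the collagens in pattern were found by the root mean square difference of centred log2 values over the 5 samples, among 837 other listed genes with at least 50 normalized counts on average. Each gene was centred on the mean of its 2 group means, which keeps the group difference by which genes were listed. The distance therefore follows mainly the log2 fold change and says little of the order of samples within a group. Nearest to the mean profile of the 7 higher genes were *Lrrc32* (0.03), which encodes the TGF-β carrier GARP, *Fbn1* (0.05), *Syt13* (0.06) and the fatty acid desaturase *Fads2* (0.06). *Lrrc32* had 121 ± 1.14 (SD, n = 2) normalized counts in control samples and 409 ± 20.1 (SD, n = 3) in *Irf8*-OE. Nearest to *Col15a1* were *Mctp1* (0.04), *Rnf128* (0.05), *Osbpl8* (0.05) and *Arhgap6* (0.06). *Mctp1* had 1748 ± 73.1 and 643 ± 74.9 normalized counts. Between the 8 genes the closest pair was *Col6a3* and *Col8a1* at 0.17, with log2 fold changes of 2.01 and 1.83. The neighbours *Col6a1* and *Col6a2* stood at 0.49, with log2 fold changes of 1.60 and 2.56. Within *Irf8*-OE both of these neighbours were highest in the first sample and lowest in the third. That order is not particular to them, as *Col16a1*, *Col1a1* and *Col1a2* on other chromosomes had it too. For *Col6a2* the first and second samples held 321 and 320 reads. *Col15a1* was at least 1.27 from every other gene.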

How the data were processed

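RNA-seq of 3 *Irf8*-OE and 2 control BMDC samples was read from 1 table. The authors deposited normalized counts, a signal obtained by dividing each gene's reads by the size factor of the sample. The 1355 genes are those with an adjusted p-value under 0.05 and at least a 2-fold difference. Genes outside the table are not analysed here. Columns with the authors' group means, fold changes and p-values were not used. The submitters' processing notes name fastp, HISAT2 2.0.5, featureCounts 1.5.0-p3, DESeq2 1.20.0, edgeR 3.22.5 and mm10, and the kit is not described as stranded.

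Dividing by the smallest step of each sample gave whole reads for 100.0% of values (tolerance 0.001). In the third *Irf8*-OE sample the step of 1.004 is near 1, so tests on reads were also run without it. A floor of 3 reads is 2.80 to 3.37 normalized counts. Intervals cover counting error only.

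The fit was limma 3.58.1 (R 4.3.3, trend) on log2(normalized count + 1), a scale that understates changes of low genes, with Benjamini-Hochberg adjustment over all 1355 genes. The fit was also run on simulated counts with 200 changed genes. Nearly all listed genes differ in the data, so that run says little of how the fit does here. Alternatives were quantile normalization, edgeR 4.0.16 and DESeq2 1.42.0 on recovered reads, a filter at 10 normalized counts, pseudocounts of 0.1 and 10, a log2 threshold of 2, the replicate number as a block, each sample left out, and the longest coding transcript as length. Members and lists were chosen with earlier results of these data known. Named genes are the 8 collagens, the label checks and the 4 genes nearest in pattern. Further genes were drawn from the 4 most abundant listed genes of each list (all where 5 or fewer). Not all that qualified are named in the text. Neighbours in the genome were added after their values were seen. Positions are those of the table and equal GENCODE vM21 (GRCm38) for all 8 genes.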

Additional observations from a re-analysis of the deposited data

How the results depend on the processing

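Over the 8 collagen genes and 15 alternative fits, the log2 fold change kept its sign in 120 of 120 values and stayed past the thresholds in 114. The 6 others were *Col6a5* after quantile normalization (0.71) and *Col16a1* after quantile normalization (0.76), with a pseudocount of 10 (0.95), with the replicate block from the sample descriptions (0.83), and without the first *Irf8*-OE or the first control sample (0.83 and 0.77). The cause was not tested. The 15 fits are not separate checks. The block from the descriptions gave the same log2 fold changes as leaving out the first *Irf8*-OE sample. That from the titles gave those without the third, and the filter at 10 normalized counts gave the reported values. The median log2 fold change, 1.71, was 1.39 after quantile normalization and 1.38 with a pseudocount of 10, and 1.58 to 1.74 with 1 sample left out, the lowest without the second control sample. Quantile normalization moved the median over all listed genes by -0.36, and a pseudocount of 10 by -0.15. The table lost calls in these fits as well. Of its 1355 genes, 1031 were called after quantile normalization, beside 6 of the 8 collagen genes. With a pseudocount of 10 it was 1145, beside 7, and without the first *Irf8*-OE sample 1268, beside 7. The count of genes called higher in the table, 787, was 509 after quantile normalization, beside 522 lower in place of 556. At a log2 threshold of 2, 518 genes of the table were called, 335 higher and 183 lower, with 3 of the collagen genes higher (3 in all) and 0 lower. Quantile normalization left 3 of 5 collagen receptors called, beside the 1031 of 1355 genes of the table. Deviations of same-numbered samples correlated at -0.01 and 0.04 with the numbers of the titles and at -0.04 and -0.04 with those of the descriptions. With 2 controls the deviations of 1 mirror those of the other, so these values are not separate. They cannot settle whether the samples were paired. The block from the titles, in which the third *Irf8*-OE sample does not inform the difference, called 8 of the 8 genes, beside 1319 of the table. The block from the descriptions, in which the first *Irf8*-OE sample does not inform it, called 7, beside 1271 of the table. A read total that covers listed genes alone limits what can be said of depth.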
